A study of Rattus norvegicus with 36 samples.

Results

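Interferon response genes are the transcripts that cells switch on when they sense type I or type II interferon. A list of 39 of them was followed through rat livers exposed to decabromodiphenylethane (DBDPE), a brominated flame retardant. A listed gene was taken by the probe set that names it alone, under its current symbol or an older alias, and by the probe set of highest mean where several did. This found 38 of the 39 genes among the 14217 genes measured, and only Gbp5 had no such probe set. The choice used gene names and mean levels over all 36 arrays, and no comparison between doses.

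The animals were male rats of the Harlan Sprague Dawley strain that entered the study at 7 weeks of age. Of the 6 groups of 6, the first received corn oil alone (vehicle). The others received DBDPE in corn oil, at 0.1 mg/kg, 0.97 mg/kg, 9.71 mg/kg, 97.1 mg/kg and 970 mg/kg. Gavage at 5 ml/kg was repeated on 5 consecutive days, and RNA came from the left lobe of the liver 1 day after the last dose. Each sample gave 1 Affymetrix 3′ IVT array, with the signal of each probe set on a log2 scale. All groups shared the gavage, the oil and the diet. RNA of the whole lobe pools hepatocytes with Kupffer cells, endothelium and lymphocytes, so that fewer cells of a type and less RNA per cell cannot be told apart.

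In textbook outline, interferons bind receptors at the cell surface whose Jak kinases phosphorylate Stat proteins. Stat2 and Irf9 are parts of a complex that binds interferon-stimulated response elements, and type II interferon also acts through gamma-activated sites. Irf7 is itself an interferon-induced gene and drives further interferon production, which gives the pathway a positive loop. In liver, resident macrophages called Kupffer cells, endothelium and hepatocytes all respond to interferon.

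Alb, the serum albumin gene made by hepatocytes, lay between 14.64 and 14.68 in all 36 livers. The upper value was the highest signal of any probe set, so this narrow range cannot show equal hepatocyte content. Array medians lay between 5.07 and 5.12, and pairs of arrays had correlations of 0.9925 to 0.9967, taken over probe sets and so over features that depend on each other. Of the 38 members, 33 had a mean level at or above that of the median probe set. Probe sets cannot fully separate close paralogues, so values of Oas1a and Oas1b, Mx1 and Mx2, Ifit2 and Ifit3, and Irgm with its relatives are uncertain in that respect.

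The promoters of 32 members were in the RefSeq table of the rat assembly GRCr8, as the bases before each gene's start. Mx2, Usp18, Isg15, Ifit2, Dhx58 and Zbp1 had no entry there. The core of the interferon-stimulated response element, GAAANNGAAA, was searched on both strands of the 250 bases upstream of each start. It occurred in 17 of the 32 members, or 53.1%, against 3.29% of the 27457 promoters of all genes. The core of the gamma-activated site, TTCNNNGAA, reads the same on both strands and occurred in 11 members, or 34.4%, against 7.52% of all promoters. In Bst2 the 2 cores overlap. A match is a description of the letters and not evidence of binding.

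Stretches of 11 promoters are shown, all of them chosen among those that hold a match. Mx1, Herc6, Stat2 and Trim25, also described below, have promoter entries with neither core and are not shown. The 11 include Irf7, to which the other members are compared, effectors that followed it closely, and Cxcl10, a chemokine that followed it less. Each is given 5′ to 3′ on the gene's own strand, and capitals mark every match to the 2 cores, in either orientation. GRCr8 positions are chr1:205800024-205800123 (minus strand) for Irf7, chr12:41330257-41330450 (plus) for Oas1a and chr1:241527226-241527325 (plus) for Ifit3. They are chr6:128355133-128355247 (plus) for Ifi27, chr6:48788178-48788277 (minus) for Rsad2 and chr2:234005627-234005726 (plus) for Gbp2. Eif2ak2 lies at chr6:21941054-21941153 (plus), Tap1 at chr20:4668575-4668674 (minus) and Irf1 at chr10:38417783-38417882 (plus). Psmb8 lies at chr20:4657182-4657281 (minus) and Cxcl10 at chr14:15988816-15988915 (plus). Irf1 and Psmb8 hold only the gamma-activated core in their 250 bases, Oas1a holds both cores, and the other 8 hold only the response element core.
Irf7: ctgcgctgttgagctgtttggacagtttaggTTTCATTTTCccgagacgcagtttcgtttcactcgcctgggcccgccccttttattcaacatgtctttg
Oas1a: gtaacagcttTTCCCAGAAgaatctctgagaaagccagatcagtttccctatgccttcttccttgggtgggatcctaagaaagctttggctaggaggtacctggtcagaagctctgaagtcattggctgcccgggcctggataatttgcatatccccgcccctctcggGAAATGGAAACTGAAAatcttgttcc
Ifit3: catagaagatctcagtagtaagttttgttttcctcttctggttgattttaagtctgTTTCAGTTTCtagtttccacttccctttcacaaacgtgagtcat
Ifi27: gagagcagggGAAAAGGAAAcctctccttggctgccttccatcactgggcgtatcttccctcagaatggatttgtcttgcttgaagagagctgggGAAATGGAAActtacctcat
Rsad2: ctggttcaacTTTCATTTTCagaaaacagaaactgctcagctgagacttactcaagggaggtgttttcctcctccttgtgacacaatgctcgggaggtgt
Gbp2: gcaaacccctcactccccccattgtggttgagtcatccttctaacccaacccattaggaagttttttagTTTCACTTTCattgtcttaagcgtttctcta
Eif2ak2: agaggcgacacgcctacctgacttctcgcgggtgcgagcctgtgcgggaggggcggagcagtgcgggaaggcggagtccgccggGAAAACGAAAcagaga
Tap1: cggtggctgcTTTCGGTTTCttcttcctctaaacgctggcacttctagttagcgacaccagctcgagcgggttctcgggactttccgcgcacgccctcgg
Irf1: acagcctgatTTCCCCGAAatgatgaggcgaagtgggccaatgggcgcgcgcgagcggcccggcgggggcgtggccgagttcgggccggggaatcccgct
Psmb8: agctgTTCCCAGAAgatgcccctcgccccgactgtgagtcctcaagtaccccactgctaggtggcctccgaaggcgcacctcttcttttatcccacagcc
Cxcl10: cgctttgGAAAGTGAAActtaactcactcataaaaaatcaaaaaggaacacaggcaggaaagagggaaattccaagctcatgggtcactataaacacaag

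In Irf7 the response element core lay at bases -69 to -60 from the start, in reverse orientation. Oas1a held a pair of overlapping cores, at -41 to -32 and at -35 to -26, and Ifi27 held cores at -169 to -160 and at -84 to -75. In Gbp2 the match lay at -31 to -22 and in Eif2ak2 at -16 to -7. The median correlation with Irf7 over the livers, described further on, was 0.78 for the 16 other genes with the core and 0.77 for the 15 without it.

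The first comparison asks whether any dose changed the interferon response genes against vehicle. None of the 38 members passed the limma test at any dose, for the mean of the 5 doses, for the slope over dose steps or for the F test over all doses. Of all 31042 probe sets 0.00644% passed at 970 mg/kg, at 97.1 mg/kg, for the mean, for the slope and for the F test, and 0% passed at 9.71, 0.97 and 0.1 mg/kg. The smallest adjusted p of a member (limma, Benjamini-Hochberg over all probe sets) was 0.9986 at 0.1 mg/kg, 0.9845 at 0.97 mg/kg, 0.9671 at 9.71 mg/kg, 0.8999 at 97.1 mg/kg and 0.9659 at 970 mg/kg. It was 0.8694 for the mean of the doses and 0.8752 for the slope. No member had all 6 treated livers above, or all below, the 6 vehicle livers at any dose. Over all probe sets 0.0805% lay wholly above vehicle at 0.1 mg/kg, 0.129% at 0.97 mg/kg, 0.0709% at 9.71 mg/kg, 0.0548% at 97.1 mg/kg and 0.116% at 970 mg/kg. Those wholly below made up 0.058% at 0.1 mg/kg, 0.106% at 0.97 mg/kg, 0.11% at 9.71 mg/kg, 0.0966% at 97.1 mg/kg and 0.0838% at 970 mg/kg.

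At each dose most members nevertheless had a higher mean than in the same 6 vehicle livers. Differences above 0 were found for 30 of 38 members at 0.1 mg/kg, 35 at 0.97 mg/kg, 34 at 9.71 mg/kg, 31 at 97.1 mg/kg and 34 at 970 mg/kg. The median log2 difference was 0.14 at 0.1 mg/kg, 0.28 at 0.97 mg/kg, 0.30 at 9.71 mg/kg, 0.14 at 97.1 mg/kg and 0.26 at 970 mg/kg. Over all 14217 genes that median lay between -0.01 and 0.00 at the 5 doses, with 46.9% to 50.6% of genes above 0. These 5 comparisons share their vehicle livers, so they are not independent of each other, and members that move together are not independent either. No steady rise with dose was seen in these medians.

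**Figure D1:**
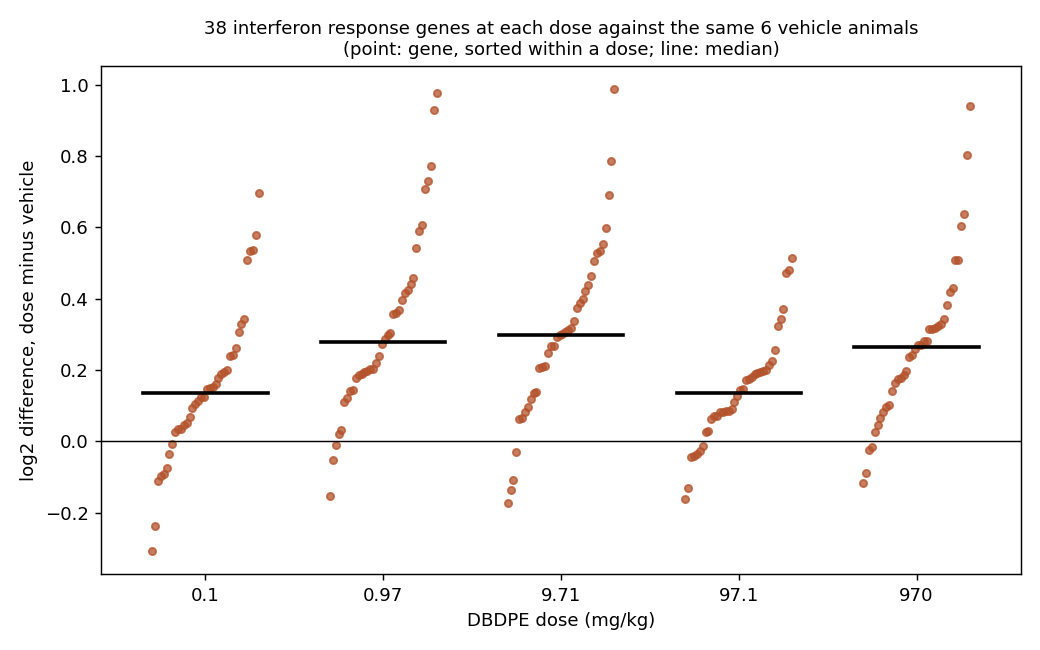
Log2 difference of the 38 interferon response genes (vertical axis) at each DBDPE dose in mg/kg (horizontal axis) against the same 6 vehicle livers; a point is a gene, sorted within its dose, and a line is the median. The medians are 0.14, 0.28, 0.30, 0.14 and 0.26 from the lowest to the highest dose, and no point passed the limma test.

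At an unadjusted p under 0.05, a level that no correction for the number of probe sets supports, 0 members were higher at 0.1 mg/kg, 15 at 0.97 mg/kg, 8 at 9.71 mg/kg, 1 at 97.1 mg/kg and 3 at 970 mg/kg. None was lower. For the mean of the 5 doses 13 members were higher and for the slope 1. The counts changed with macrophage markers in the model, as given beside those markers. Over all probe sets the higher share was 2.31% at 0.1 mg/kg, 2.45% at 0.97 mg/kg, 2.43% at 9.71 mg/kg, 2.73% at 97.1 mg/kg and 2.38% at 970 mg/kg, with 2.66% for the mean and 2.67% for the slope. The lower share was 2.15% at 0.1 mg/kg, 2.46% at 0.97 mg/kg, 2.63% at 9.71 mg/kg, 2.7% at 97.1 mg/kg and 2.49% at 970 mg/kg, with 2.64% for the mean and 3.02% for the slope.

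These member counts turned on single livers, most of them vehicle livers or livers of the dose in question. Without vehicle replicate 1 they were 6 at 0.1 mg/kg, 20 at 0.97 mg/kg, 18 at 9.71 mg/kg, 3 at 97.1 mg/kg and 19 at 970 mg/kg. The count at 0.97 mg/kg was 7, 5 and 6 without vehicle replicates 3, 4 and 6, and 4, 6, 7 and 9 without that group's own replicates 2, 3, 4 and 6. The count at 9.71 mg/kg was 5 without vehicle replicate 6, 16 and 19 without the group's own replicates 1 and 2, 3 without replicate 3, and 4 without replicate 5 or 6. The count at 970 mg/kg was 7 without vehicle replicate 2, 1 without replicate 3 and 0 without replicate 5 or 6. Without the group's own replicates 1, 2 and 6 it was 1, 0 and 8. Livers of the other 4 dose groups enter only through the shared spread. Leaving out each of these 24 gave 3 or 4 in 21 cases, 5 for replicate 1 at 0.97 mg/kg and for replicate 5 at 97.1 mg/kg, and 7 for replicate 1 at 9.71 mg/kg. The count at 97.1 mg/kg ran from 0 to 3 over all livers left out, and that for the slope from 0 to 5. The count for the mean of the doses was 20 without vehicle replicate 1 and 4, 2, 7 and 5 without vehicle replicates 3, 4, 5 and 6. No member passed after adjustment in any of these fits. The share of all probe sets at an unadjusted p under 0.05 was not taken in them.

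The members of smallest p differed between doses. At 970 mg/kg they were Ifi44, Herc6, Usp18 and Irf9. Usp18, the protease that removes Isg15 from proteins and dampens receptor signalling, differed by a log2 of 0.94 (95% interval 0.05 to 1.83, limma adjusted p = 0.9659). Herc6, a ligase that attaches Isg15 in mouse, differed by 0.38 and Ifi44 by 0.31. At 97.1 mg/kg Ifih1 (MDA5), a sensor of double-stranded RNA, led with 0.21 (0.03 to 0.39, limma adjusted p = 0.8999). Eif2ak2, Cxcl10 and Irf9 followed it there. Oas1b, a member of the oligoadenylate synthetase family, Parp14, Dtx3l and Eif2ak2 led at both 0.97 and 9.71 mg/kg. Parp14 and Dtx3l encode an ADP-ribosyl transferase and a ubiquitin ligase, and Eif2ak2 (PKR) is a kinase that halts translation on double-stranded RNA. Oas1b differed by 0.44 at 0.97 mg/kg (0.12 to 0.77, limma adjusted p = 0.9845) and by 0.53 at 9.71 mg/kg (0.21 to 0.85, limma adjusted p = 0.9671). At 0.1 mg/kg Eif2ak2, Ifih1, Dtx3l and Irf7 led, Eif2ak2 with 0.31 and an interval from just under 0 to 0.61.

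For the 5 doses together, Ifih1 had a mean difference of 0.19 (0.05 to 0.33), Oas1b of 0.34 (0.09 to 0.59), Dtx3l of 0.30 (0.07 to 0.52) and Eif2ak2 of 0.30 (0.06 to 0.54). Their limma adjusted p-values lay between 0.8694 and 0.9085. Over dose steps the leading members were Ifi44, Herc6, Ifih1 and Parp14, and the slope of Ifi44 was 0.05 per step (0.00 to 0.09, limma adjusted p = 0.8752). The F test had its smallest unadjusted p for Parp14 (0.02539) and Oas1b (0.03365), both with a limma adjusted p of 0.9994. Parp14 also had the highest share of its variance between dose groups, 31.5%, and Cxcl11 the lowest, 2.62%.

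The width of these intervals came from the spread between livers of the same group. Irf7, the transcription factor gene that heads the list, had a median level of 6.57 in vehicle livers, 7.54 at 0.1 mg/kg, 7.71 at 0.97 mg/kg, 7.80 at 9.71 mg/kg, 7.37 at 97.1 mg/kg and 7.61 at 970 mg/kg. Its lowest level was 6.24 in vehicle, 6.56 at 0.1 mg/kg, 6.85 at 0.97 mg/kg, 6.36 at 9.71 mg/kg, 6.06 at 97.1 mg/kg and 6.94 at 970 mg/kg. Its highest was 7.82 in vehicle, 8.06 at 0.1 mg/kg, 8.03 at 0.97 mg/kg, 8.27 at 9.71 mg/kg, 7.92 at 97.1 mg/kg and 7.64 at 970 mg/kg. Every dose group overlapped vehicle. Vehicle replicates 1 and 2, at 7.82 and 7.50, lay among the treated livers, and the other 4 vehicle livers lay between 6.24 and 6.64. At 0.1, 9.71 and 97.1 mg/kg some Irf7 levels lay within or below those 4 as well. The group mean was 7.49 ± 0.27 at 970 mg/kg, against 6.85 ± 0.65 in vehicle (SD, n = 6 each), a log2 difference of 0.64 (95% interval -0.04 to 1.32, limma adjusted p = 0.9659).

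Usp18 spread even further. Its median was 5.37 in vehicle livers, 6.76 at 0.1 mg/kg, 6.93 at 0.97 mg/kg, 6.94 at 9.71 mg/kg, 6.39 at 97.1 mg/kg and 6.83 at 970 mg/kg. Its range was 5.07 to 7.17 in vehicle, 5.15 to 7.42 at 0.1 mg/kg, 5.57 to 7.53 at 0.97 mg/kg, 5.00 to 7.54 at 9.71 mg/kg, 5.07 to 7.54 at 97.1 mg/kg and 6.37 to 6.99 at 970 mg/kg. The livers at 970 mg/kg lay close together, above 4 of the vehicle livers, and were overlapped by the vehicle pair that was also high in Irf7. Herc6 ran from 4.80 to 5.28 at 970 mg/kg, with a median of 5.01, against 4.41 to 5.16 with a median of 4.57 in vehicle. These groups also overlapped.

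Among the antiviral effectors, Mx1 and Mx2 encode dynamin-like GTPases that trap viral particles. Mx1 had a median of 4.26 in vehicle livers, 4.96 at 0.1 mg/kg, 5.28 at 0.97 mg/kg, 5.15 at 9.71 mg/kg, 4.91 at 97.1 mg/kg and 4.86 at 970 mg/kg. Its range was 3.81 to 5.57 in vehicle, 3.84 to 5.97 at 0.1 mg/kg, 3.99 to 6.21 at 0.97 mg/kg, 4.08 to 5.84 at 9.71 mg/kg, 3.41 to 5.63 at 97.1 mg/kg and 4.50 to 5.31 at 970 mg/kg. The 970 mg/kg livers thus lay inside the vehicle range. Mx2 had the widest spread of any member, with a within-group SD of 0.89 that exceeded that of 99.9% of probe sets. Oas1a, an oligoadenylate synthetase that switches on RNase L, had medians of 4.72 in vehicle, 5.81 at 0.1 mg/kg, 5.93 at 0.97 mg/kg, 5.94 at 9.71 mg/kg and 5.67 at both 97.1 and 970 mg/kg. It ran from 4.36 to 6.69 in treated livers, against 4.53 to 6.02 in vehicle livers, and every dose group overlapped vehicle.

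Isg15 encodes the ubiquitin-like protein that Herc6 attaches and Usp18 removes. Its median was 6.35 in vehicle livers, 6.97 at 0.1 mg/kg, 7.13 at 0.97 mg/kg, 7.36 at 9.71 mg/kg, 6.87 at 97.1 mg/kg and 7.04 at 970 mg/kg. It ran from 6.44 to 7.46 at 970 mg/kg, against 5.86 to 7.54 in vehicle. Ifit3, of a family that binds foreign RNA, ran from 3.97 to 4.69 at 970 mg/kg, against 3.46 to 5.00 in vehicle. Rsad2 (viperin) makes a nucleotide that ends viral RNA chains, and ran from 6.90 to 7.70 at 970 mg/kg, against 6.61 to 7.07 in vehicle. In each of these genes the groups overlapped.

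Among sensors, antigen processing genes and chemokines the groups overlapped too. Ifih1 ran from 6.54 to 6.64 with a median of 6.58 at 970 mg/kg, against 6.21 to 6.78 with a median of 6.39 in vehicle. Only vehicle replicate 1, at 6.78, lay above the 970 mg/kg livers, and the other vehicle livers lay at or below 6.40. Psmb8, a catalytic subunit of the immunoproteasome, ran from 8.17 to 9.39 at 970 mg/kg, against 7.94 to 9.20 in vehicle. Tap1, which carries peptides into the endoplasmic reticulum for presentation, ran from 6.58 to 7.14 at 970 mg/kg, against 6.31 to 7.00 in vehicle. Cxcl10, a chemokine that draws T cells through Cxcr3, ran from 4.91 to 6.13 at 970 mg/kg, against 5.08 to 5.76 in vehicle. For Stat2, a partner of Irf9, the probe set used hardly varied, with 8.51 to 8.72 at 970 mg/kg, against 8.53 to 8.73 in vehicle. A second Stat2 probe set, of mean level 8.07, correlated with it at only 0.57 within groups.

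**Figure D2:**
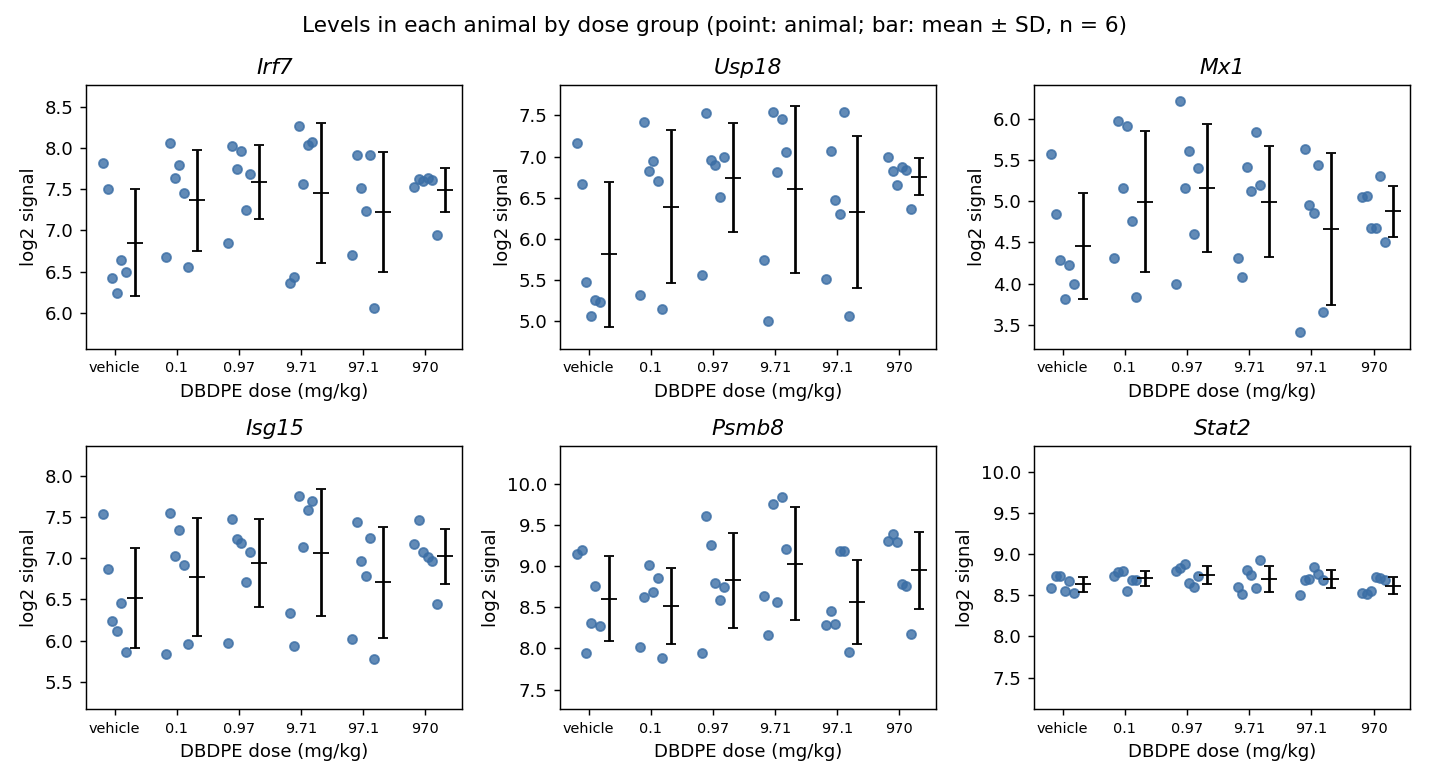
Log2 signal (vertical axes, each spanning the same width) of 6 members in every liver by dose in mg/kg (horizontal axes); a point is a liver and the bar is the mean ± SD of 6. Usp18 at 970 mg/kg lies between 6.37 and 6.99 and in vehicle between 5.07 and 7.17, and the Stat2 probe set used spans 8.5 to 8.93.

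By role, the median log2 difference of the 14 antiviral effectors was 0.19 at 0.1 mg/kg, 0.39 at 0.97 mg/kg, 0.30 at 9.71 mg/kg, 0.16 at 97.1 mg/kg and 0.32 at 970 mg/kg. The 6 ubiquitin and ADP-ribosyl enzymes had 0.14 at 0.1 mg/kg, 0.33 at 0.97 mg/kg, 0.30 at 9.71 mg/kg, 0.16 at 97.1 mg/kg and 0.26 at 970 mg/kg. The 4 antigen processing genes had -0.06 at 0.1 mg/kg, 0.16 at 0.97 mg/kg, 0.31 at 9.71 mg/kg, -0.02 at 97.1 mg/kg and 0.23 at 970 mg/kg. The 4 sensors stayed between 0.13 and 0.17 at all doses, and the 3 chemokines between 0.03 and 0.08. No member of any role passed the test.

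A score per liver sums up these levels as the average, over the 38 members, of each level minus its vehicle mean on the log2 scale. It is a description with no test. It was 0.00 ± 0.32 in vehicle, 0.15 ± 0.37 at 0.1 mg/kg, 0.33 ± 0.30 at 0.97 mg/kg, 0.30 ± 0.39 at 9.71 mg/kg, 0.14 ± 0.32 at 97.1 mg/kg and 0.27 ± 0.16 at 970 mg/kg (SD, n = 6 each). Of the 30 treated livers 22 scored above 0, as did 2 of the 6 vehicle livers. Only 4 treated livers scored above the highest vehicle liver and 2 scored below the lowest. The highest score was 0.69, in replicate 2 of the 0.97 mg/kg group, and the lowest was -0.39, in replicate 6 of the 0.1 mg/kg group. Dose groups held 13.2% of the variance of the score, against 12.5% for the median probe set. Vehicle replicate 1 scored 0.53, with 37 of the 38 members above their vehicle mean, and vehicle replicate 2 scored 0.25. Without vehicle replicate 1 the median difference of the members was 0.21 at 0.1 mg/kg, 0.33 at 0.97 mg/kg, 0.37 at 9.71 mg/kg, 0.19 at 97.1 mg/kg and 0.35 at 970 mg/kg, and still none passed the limma test.

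**Figure D3:**
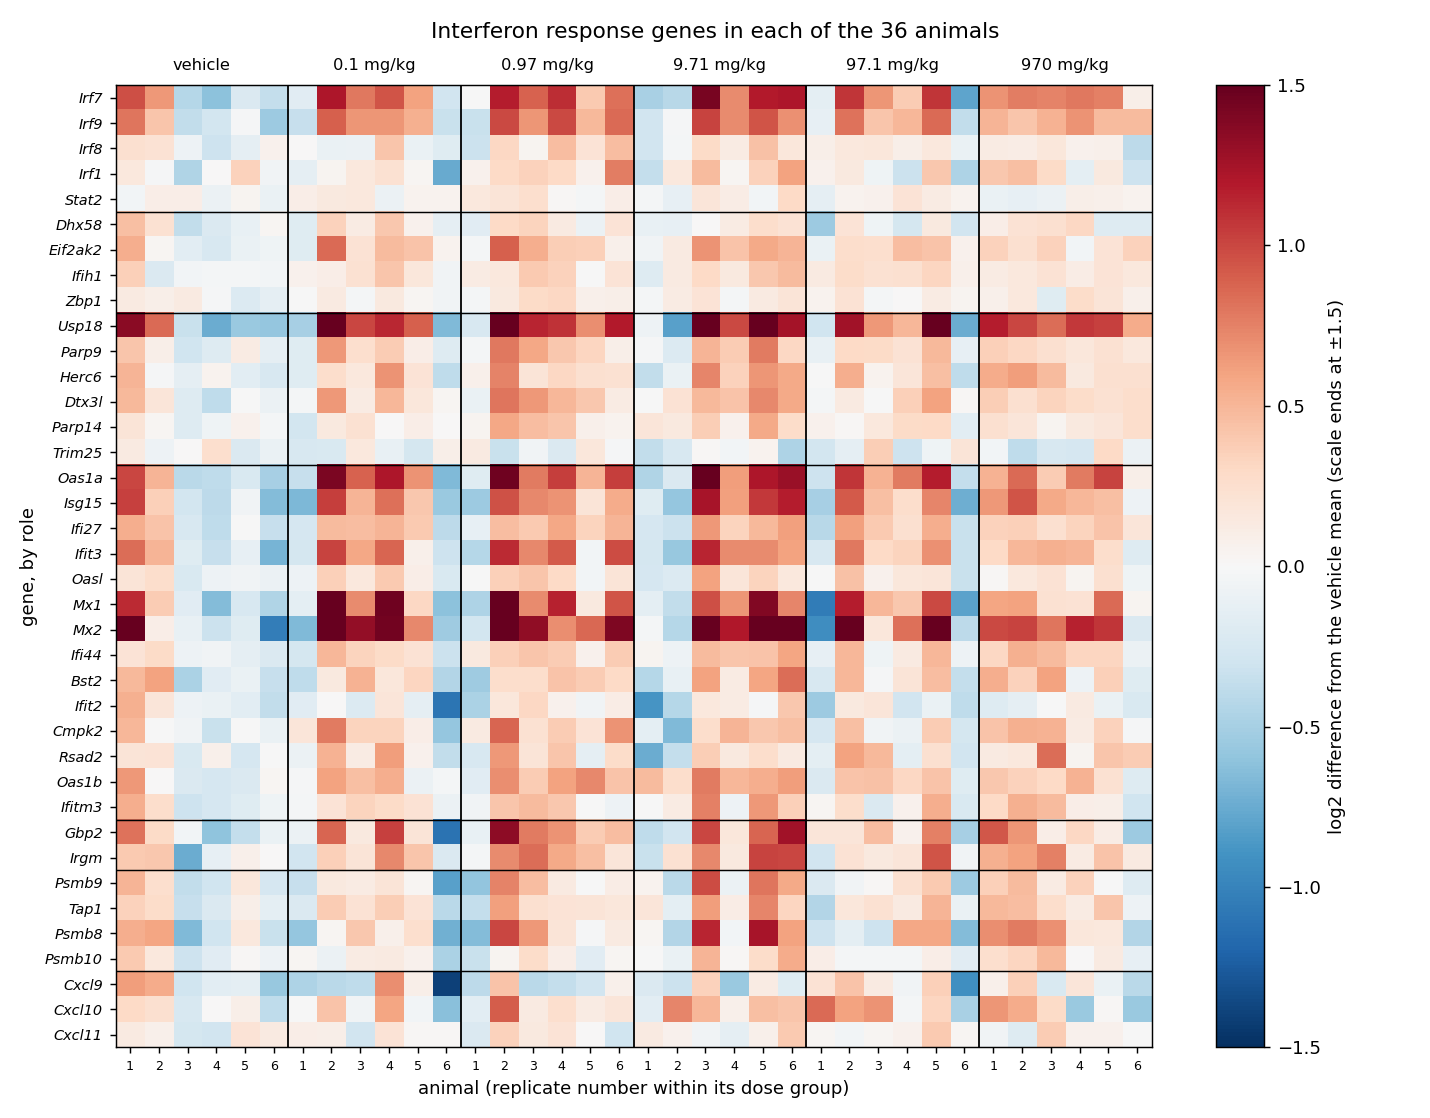
Log2 difference from the vehicle mean (colour, scale ending at ±1.5) of the 38 members (rows, by role) in the 36 livers (columns, by dose group and replicate number). Whole columns are red or blue: vehicle replicate 1 scores 0.53, and replicate 6 of the 0.1 mg/kg group scores -0.39.

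The second comparison asks how far the members rose and fell together from liver to liver once the group means were removed. Most of them moved as a block. Over the 703 pairs of members the median within-group correlation was 0.66 and 94.6% of pairs were above 0, against a median of 0.00 and 49.9% above 0 over all pairs of the 14217 genes. A single component held 65.2% of the members' variance within groups and the next 5.68%, against 10.8% for the first component of all probe sets. The points behind each correlation are the same 36 livers, normalized together. The members also varied more than most genes, with a median within-group SD of 0.33 against 0.14 for all probe sets.

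Coupling by role was described and not tested, and it rested on 3 pairs for chemokines and 6 each for sensors and antigen processing genes. The median pairwise correlation was 0.83 among the 4 antigen processing genes, 0.78 among the 14 antiviral effectors and 0.69 among the 6 ubiquitin and ADP-ribosyl enzymes. It was 0.58 among the 5 regulators, 0.49 among the 4 sensors and 0.19 among the 3 chemokines. Pairs of the ubiquitin and ADP-ribosyl enzymes ran from -0.2 to 0.88, with 66.7% above 0. The 2 measured GTPases, Gbp2 and Irgm, correlated at 0.72. The lowest pair was Cxcl11 with Trim25, at -0.44, and the highest pairs were Irf7 with Usp18, with Isg15 and with Oas1a, and Usp18 with Isg15, all at 0.96.

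Each member was then tested against the Irf7 level within dose groups, with limma over all probe sets. Of the other 37 members 32 passed with a positive slope and 0 with a negative one, where 1.17% of the 31041 probe sets passed with a positive slope and 0.0644% with a negative one. All 14 antiviral effectors, all 4 antigen processing genes and both GTPases passed. Of the ubiquitin and ADP-ribosyl enzymes 5 of 6 passed, of the regulators 3 of 4, of the sensors 3 of 4 and of the chemokines only Cxcl9. Those that did not pass were Stat2, Zbp1, Trim25, Cxcl10 and Cxcl11. Leaving out each liver in turn gave 31 to 33 members.

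Usp18 had the smallest p. It rose by a log2 of 1.26 per unit of Irf7 (95% interval 1.13 to 1.39, limma adjusted p = 8.585e-16), with Pearson's r = 0.96 and Spearman's rho = 0.94 over 36 livers. The permutation p of both was 1e-05, the smallest that 100000 shuffles can give, and r was 0.97 without the 2 livers farthest from the median of Irf7. Within single dose groups r ran from 0.82 to 0.99. Isg15 rose by 0.96 per unit of Irf7 (0.85 to 1.06, limma adjusted p = 8.709e-16; r = 0.96, rho = 0.95). Oas1a rose by 1.03 (0.91 to 1.14, limma adjusted p = 2.165e-15; r = 0.96, rho = 0.94). Both also had a permutation p of 1e-05, r = 0.96 and 0.95 without the 2 farthest livers, and r of at least 0.79 within every group. Ifi27, an interferon-induced mitochondrial protein gene (r = 0.95), and Irf9, the DNA-binding partner of Stat2 (r = 0.93), completed the 5 closest. For Irf9 the correlation within single groups ran from 0.26 to 0.99.

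The remaining members of the antigen processing and GTPase groups followed Irf7 at r = 0.70 for Psmb10 to 0.84 for Psmb9 and Gbp2. Psmb8 rose by 0.67 per unit of Irf7 (0.48 to 0.86, limma adjusted p = 8.86e-06) and Tap1 by 0.40 (0.30 to 0.50, limma adjusted p = 6.906e-07). A second, dimmer Tap1 probe set had a mean level of 3.54 and r = 0.29. Mx1 rose by 1.05 (0.87 to 1.23) and Mx2 by 1.27 (1.04 to 1.49) per unit of Irf7. Over all members the median r was 0.79, and 35 of 37 lay above 0.32, the 95th percentile of all probe sets. Levels of Irf7 formed no separate clusters wider apart than 0.29, the gap between 6.94 and 7.23.

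At the other end, Trim25, a ubiquitin ligase that activates the RNA sensor RIG-I, had r = -0.05 (rho = -0.06, permutation p = 0.787, limma adjusted p = 0.9938). Cxcl11 had r = 0.27 (rho = 0.31, permutation p = 0.13, limma adjusted p = 0.8871) and Stat2 r = 0.34 (rho = 0.32, permutation p = 0.092, limma adjusted p = 0.7841). Zbp1 had r = 0.48 (rho = 0.57, permutation p = 0.00279) and Cxcl10 r = 0.52 (rho = 0.51, permutation p = 0.00121). The limma adjusted p over all probe sets was 0.2929 for Zbp1, a sensor of unusual nucleic acids, and 0.0957 for Cxcl10. Zbp1 was dim, with a mean level of 4.19 and a within-group SD of 0.12. For Cxcl10 r was 0.40 without the 2 farthest livers. The Stat2 probe sets disagreed: the one used, of higher mean, had a within-group SD of 0.11, while the other had r = 0.71 with Irf7.

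**Figure D4:**
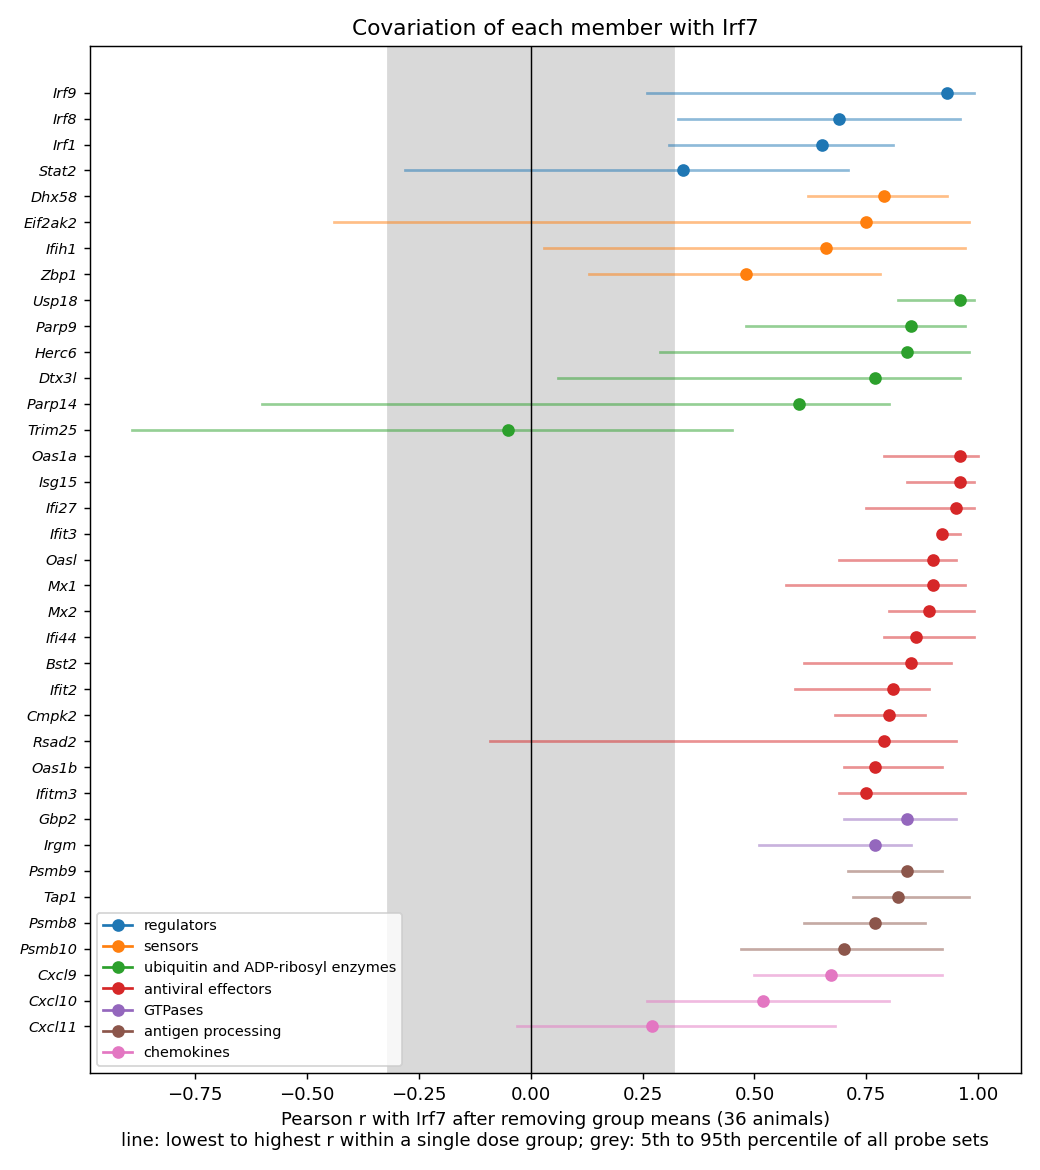
Pearson's r of each member with Irf7 after removal of group means (horizontal axis, point, 36 livers), by role, with a line from the lowest to the highest r within a single dose group of 6 and grey for the 5th to 95th percentile of all probe sets (-0.32 to 0.32). Oas1a, Isg15 and Usp18 reach 0.96, and Trim25 lies at -0.05.

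Markers of macrophages moved with the same livers. Of 12 listed markers of Kupffer cells and macrophages 9 were measured, without Marco, Vsig4 and Timd4, and all 9 passed with a positive slope on Irf7. Clec4f, a lectin of Kupffer cells, had r = 0.91, the complement gene C1qa 0.88, Cd68 0.86 and Cd163 0.56. Their mean level had r = 0.88 and rho = 0.91 with Irf7 (permutation p = 1e-05, the smallest possible, and 8e-05 adjusted over the 8 marker means compared; r = 0.87 without the 2 farthest livers), and r from 0.84 to 0.97 within single groups. The markers' summed log2 level ran from 68.9 to 77.4 in vehicle, 70.1 to 78.8 at 0.1 mg/kg, 71.9 to 78.2 at 0.97 mg/kg, 71.6 to 77.8 at 9.71 mg/kg, 71.8 to 77.4 at 97.1 mg/kg and 71.9 to 76.6 at 970 mg/kg. Their median difference from vehicle was 0.19 at 0.1 mg/kg, 0.29 at 0.97 mg/kg, 0.20 at 9.71 mg/kg, 0.12 at 97.1 mg/kg and 0.21 at 970 mg/kg, and 0 of 9 passed the limma test there.

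With the macrophage marker mean in the model, 11 of the 37 members still passed for Irf7, where 0.248% of the 31041 probe sets passed in either direction. These were Isg15, Usp18, Ifi27, Oas1a, Irf9, Ifit3, Mx1, Mx2, Oasl, Herc6 and Parp9. The slope of Usp18 was 1.27 and that of Isg15 1.04 in that fit, close to their slopes without the markers. The 21 members that no longer passed kept a median of 63.0% of their slope. Of these, 5 kept at least 90%: Rsad2 had 0.42 with the markers, against 0.43 without, Ifi44 0.33 against 0.35, Ifih1 0.17 in both fits, Eif2ak2 0.38 against 0.34 and Parp14 0.25 against 0.16. Another 5 kept under 50%, namely Gbp2, Irf1, Cxcl9, Psmb10 and Irf8. Irf8, a transcription factor of myeloid cells, had -0.02 with the markers, against 0.25 without. A lost call therefore does not show that the association was gone. The members' median difference from vehicle became 0.00 at 0.1 mg/kg, 0.09 at 0.97 mg/kg, 0.14 at 9.71 mg/kg, 0.05 at 97.1 mg/kg and 0.07 at 970 mg/kg. Differences above 0 were left for 18 members at 0.1 mg/kg, 25 at 0.97 mg/kg, 31 at 9.71 mg/kg, 23 at 97.1 mg/kg and 24 at 970 mg/kg. At an unadjusted p under 0.05, 0 were higher and 3 lower at 0.1 mg/kg, 1 higher and 2 lower at 0.97 mg/kg, 4 higher and 1 lower at 9.71 mg/kg, 1 higher and 2 lower at 97.1 mg/kg, and 0 higher and 1 lower at 970 mg/kg. For the mean of the doses 3 were higher and 2 lower. The shares of all probe sets given earlier come from the fit without the markers. None was taken with them, so these small counts have no background beside them. The part of macrophage number or state in the covariation was not tested beyond this fit.

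**Figure D5:**
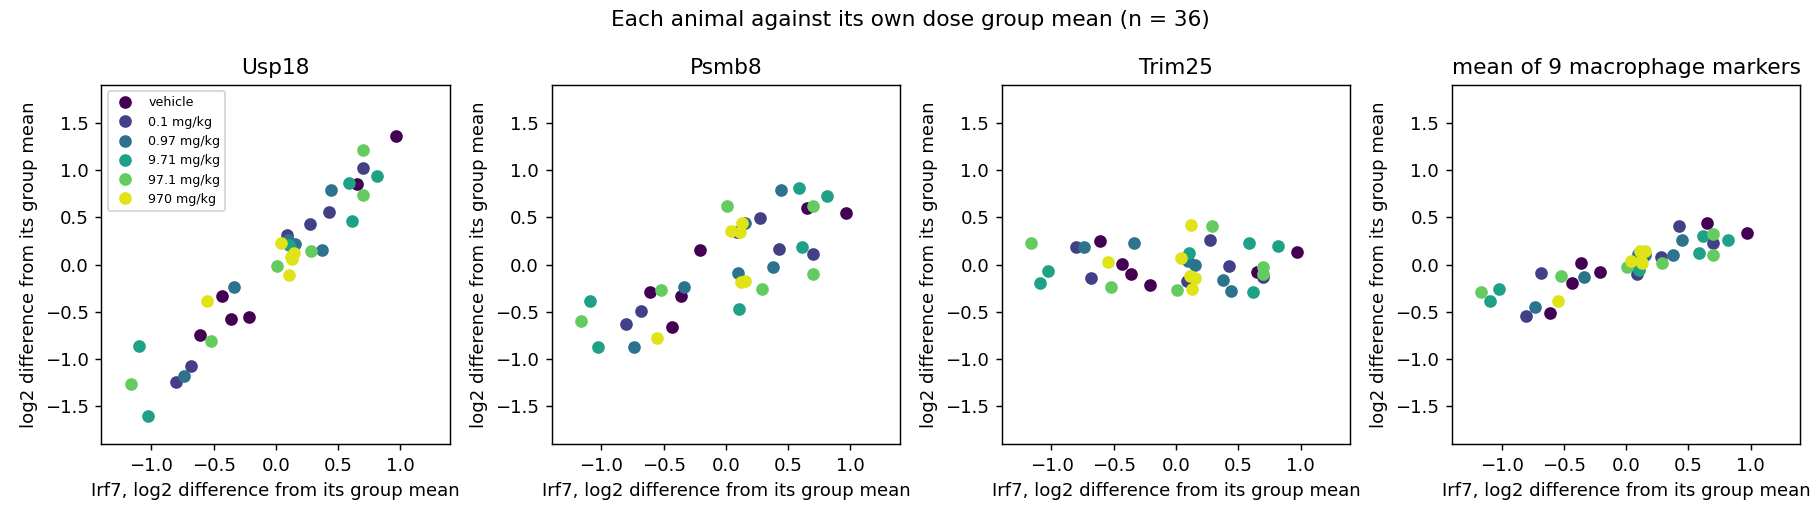
Log2 difference of each liver from its own dose group mean, with Irf7 on the horizontal axes and Usp18, Psmb8, Trim25 and the mean of 9 macrophage markers on the vertical axes (36 livers, coloured by dose). Usp18 (r = 0.96) and the macrophage mean (r = 0.88) rise with Irf7, and Trim25 (r = -0.05) does not.

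The mean level of 12 T and NK cell markers also followed Irf7, with r = 0.78 and rho = 0.79 (permutation p = 2e-05, 8e-05 adjusted over the 8 marker means; r = 0.77 without the 2 farthest livers) and r from 0.70 to 0.97 within single groups. Of these 12 markers 4 passed with a positive slope on Irf7: Ccl5, Prf1, Klrd1 and Klrb1a, of which the last 3 belong to cytotoxic and NK cells. Those that did not pass ran from r = -0.26 for Cd2 to 0.51 for Nkg7, with 0.45 for Gzmb and, among the T cell receptor complex genes, 0.31 for Cd3e, 0.05 for Cd3d and -0.01 for Cd3g. The summed log2 level of the 12 ran from 55.9 to 60.0 in vehicle, 56.5 to 59.9 at 0.1 mg/kg, 58.4 to 60.4 at 0.97 mg/kg, 56.9 to 61.3 at 9.71 mg/kg, 57.6 to 60.2 at 97.1 mg/kg and 57.1 to 60.2 at 970 mg/kg. None of 4 B cell, 6 neutrophil, 2 plasmacytoid dendritic cell, 6 hepatocyte or 2 erythroid markers passed. Only Tcf4 and Il3ra of 6 listed plasmacytoid dendritic cell markers were measured, so these cells were hardly covered. Several markers were dim, with mean levels of 3.18 for Cxcr2, 3.81 for Cd37 and 3.98 for Cd3d, below every array median. Klrd1 (3.54) and Klrb1a (3.72) passed although dim, while S100a9 (5.91) and Cd22 (5.83) were brighter and did not pass. A dim marker that did not pass cannot show that its cells did not follow Irf7. Of 4 endothelial markers Stab2, a scavenger receptor of liver sinusoids, passed with a negative slope (r = -0.61). The 3′ to 5′ difference of the beta-actin control (r = -0.06) did not follow Irf7. Array medians (r = 0.02) could hardly do so, because the deposited signals were aligned between arrays, with medians between 5.07 and 5.12.

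Of 73 further pathway genes that are not members, 53 were measured. None passed the limma test at any dose, and 21 passed with a positive slope on Irf7, with 0 negative. Neither measured ligand passed: Ifnb1 had r = 0.00 and Ifng, the type II interferon, r = 0.08. Both were dim, with mean levels of 3.82 and 2.73 against array medians of 5.07 to 5.12. Their values near 0 thus cannot show whether ligand levels followed Irf7. The receptor gene Ifnlr1, with a mean level of 3.45, was dim as well. The receptor genes Ifnar1, Ifnar2, Ifngr1, Ifngr2, Ifnlr1 and Il10rb, the kinases Jak1, Jak2 and Tyk2, the factors Irf2, Irf3 and Irf5 and the inhibitors Socs1, Socs3 and Pias1 did not pass either. The genes that passed included Tlr7, a sensor of RNA in endosomes (r = 0.71), and targets such as Igtp (r = 0.92), Lgals3bp (0.91), Ube2l6 (0.89), Ddx60 (0.88) and Apol9a (0.89). Of these, Tlr7 and Ddx60 were as dim as Ifnb1, with mean levels of 3.89 and 3.81. Ifit1 and Ido1, also classed as targets, had r = -0.04 and -0.08.

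Among all genes outside the list, those of smallest p for Irf7 were Ms4a6a (r = 0.96), Rtp4 (0.95), Ly6e (0.95), Lgals9 (0.94) and RT1-S3 (0.94). Rtp4 and Ly6e belong to the further pathway genes, and RT1-S3 is a class I histocompatibility gene of a multigene family, so its identity is uncertain. Ms4a6a rose by 1.09 per unit of Irf7 (limma adjusted p = 1.693e-15). With a negative slope the 5 of smallest p were Tspan33 (r = -0.64), Rbp7 (-0.61), Ccl27 (-0.60), Stab2 (-0.61) and Elovl2 (-0.61), a fatty acid elongase. Tspan33 fell by 0.19 per unit of Irf7 (limma adjusted p = 0.00757).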

How the data were processed

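Liver RNA of 36 rats was measured on Affymetrix 3′ IVT arrays, 6 per dose group. Each numbered sample was taken as its own rat, which the labels do not state, so p-values measure the spread between these samples. The deposited values are log2 signals of 31099 probe sets, which the authors made with RMA and the affy package, per the submitters' processing notes, with versions not given in the sources used here. RMA subtracts background and aligns the arrays' distributions, so differences are relative to the bulk of probe sets, and background signal compresses differences of dim ones. They run from 1.80 to 14.68 with 0 missing values.

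The 57 control probe sets were left out. Of the rest 20826 name 1 gene in the platform annotation, 436 several and 9780 none, and 20758 matched the RefSeq gene table of GRCr8. Differences between dose groups and vehicle came from limma 3.58.1 (R 4.3.3), with lmFit and eBayes on the 36 arrays together and two-sided p-values adjusted by Benjamini-Hochberg over all 31042 probe sets at a threshold of 0.05. The series text names another package for the same comparison. The association with Irf7 used a model with group means and the Irf7 level. Correlations were taken on differences from group means, with 100000 shuffles within groups, in Python 3.11.15, numpy 2.4.6 and scipy 1.17.1. They covered 37 members. The method was tested on simulated data with normal spread, in which probe sets not made to follow a chosen one varied independently. Members here moved together, and that test does not cover this feature.

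Members, lists and tests were chosen with earlier results of these data known. Genes named were the 4 members of smallest p in each comparison, anchors of each role, the 5 members closest to and farthest from Irf7, and the 10 closest genes outside the list. Genes named from the further pathway list as examples, the cell type markers quoted and the promoters printed were chosen after their values were seen. Other settings tried were cyclic loess, arrays centred on their medians, array weights, a robust prior with an intensity trend, a block for the replicate number, only brighter probe sets, probe sets averaged per gene, a covariate of macrophage markers or of the beta-actin difference, fits on only the 12 samples compared, Stat2 in place of Irf7, and each sample left out. Same-numbered samples of different groups had residuals correlated at a mean r of 0.00485 (90 pairs, -0.25 to 0.26, 15 over 0.1). The main fits treated the samples as unpaired, although this mean cannot show whether the numbers mark a shared block. The number of arrays limits the precision, and no hybridisation batch is given in the sources used here.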

Additional observations from a re-analysis of the deposited data

Results flagged for a closer look

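Of 150 combinations of a named gene or the score with a group of 6 livers, 12 held 1 liver far from the others by Dixon's test, and chance gives about 1 in 20. Replicate 6 of the 970 mg/kg group was lowest for Irf7 (6.94, the next 7.53), Mx2 (4.80, the next 5.82), Ifit3 (3.97, the next 4.43), Ifi44 (5.87, the next 6.27) and the score (-0.04, the next 0.24). Vehicle replicate 1 was highest for Oas1b (3.66, the next 3.04), Ifih1 (6.78, the next 6.40) and Eif2ak2 (7.16, the next 6.65). In the 970 mg/kg group replicate 4 was lowest for Eif2ak2 (6.58, the next 6.83). In the 97.1 mg/kg group replicate 5 was highest for Cxcl11 (9.46, the next 9.13). In the 0.97 mg/kg group replicate 2 was highest for Herc6 (5.39, the next 4.96) and replicate 1 lowest for Ifi27 (12.08, the next 12.54). Members move together, so flags in the same liver are not independent of each other.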

How the results depend on the processing

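Of 2259 values recomputed under an alternative 2255 were classed as unchanged, and all 365 counts of members passing limma in a dose comparison were 0. The difference of a single member was so classed when it kept its direction and its side of the threshold. Adjusted p-values of the main fit lay far above the threshold, so the side was nearly certain to hold and the class says little about size. With the macrophage marker covariate Usp18 at 970 mg/kg fell from 0.94 to 0.42 and Irf7 at 0.1 mg/kg from 0.51 to 0.16. Both were still classed as unchanged. A count was so classed when it equalled the main count or lay within a fixed fold of it. Medians and scores were so classed when they moved by less than 0.32, the within-group SD of the score. That width exceeds every median difference of the main fit, so the class says little about the medians. With the macrophage marker covariate the members associated with Irf7 numbered 11 instead of 32, and all probe sets 77 instead of 382, while the 21 members that no longer passed kept a median of 63.0% of their slope and 5 of them at least 90%. With Stat2, by its probe set of higher mean, in place of Irf7 both counts were 0, and the cause was not tested. With the replicate number as a block 31 members and 297 probe sets passed, and this changed no other call. Leaving out single livers gave 313 to 386 probe sets. The members' median difference ran, over livers left out, from 0.07 to 0.21 at 0.1 mg/kg, 0.21 to 0.33 at 0.97 mg/kg, 0.22 to 0.38 at 9.71 mg/kg, 0.07 to 0.21 at 97.1 mg/kg and 0.20 to 0.35 at 970 mg/kg. With only the 12 samples compared, 16 members at 970 mg/kg had an unadjusted p under 0.05, against 3 over all samples. The share of all probe sets at that level was not taken in the 12-sample fit, so its count has no background beside it. Signals near background, as for Oas1b, Ifnb1, Ifng and the second Tap1 probe set, limit what differences and correlations can show.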

Other observations

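The spread of several members was narrow at 970 mg/kg, a pattern noticed in the values and not tested. The SD of Irf7 was 0.27 at 970 mg/kg, against 0.65 in vehicle, and that of Usp18 0.22, against 0.88. Ifi27 had 0.09 at 970 mg/kg, against 0.40 in vehicle, and Ifih1 0.04, against 0.19. Psmb8 had 0.47 at 970 mg/kg, against 0.51 in vehicle, and Cxcl10 went the other way with 0.53, against 0.27. At the 4 lower doses the SD of Irf7 lay between 0.45 and 0.85 and that of Usp18 between 0.66 and 1.02.

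The mean level of the hepatocyte markers was lower where Irf7 was high, with r = -0.48 (rho = -0.46, permutation p = 0.0116, 0.0309 adjusted over the 8 marker means compared, r = -0.56 without the 2 farthest livers), although no single hepatocyte marker passed the limma test. Apoa1 had r = -0.41, Cps1 -0.17, Serpina1 -0.12, Ttr -0.11 and Ahsg -0.04, while Alb went the other way with 0.18. Their mean levels, from 13.16 for Cps1 to 14.66 for Alb, lay near the highest signal of the arrays, 14.68. The other marker means not yet given had r = -0.27 for endothelium, -0.17 for neutrophils, -0.15 for erythroid cells, 0.24 for B cells and 0.09 for plasmacytoid dendritic cells.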
